A study of Canis lupus familiaris with 6 samples.

Results

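miR-210 is a microRNA (miRNA), a short RNA that pairs with messenger RNAs and lowers their output. Its gene is a direct target of the hypoxia-inducible factors (HIF), the transcription factors that act when oxygen is scarce, and in most mammalian cells it is among the miRNAs that rise most reliably in low oxygen. Its known targets include ISCU, a scaffold for iron-sulphur clusters in mitochondria, and EFNA3, a ligand of Eph receptors, and in human breast tumours a high level is often used as a sign of hypoxia. The levels of miR-210 are described here in sorted canine mammary cancer cells. It was taken as every spot whose gene name was cfa-miR-210, which made it 1 of 289 canine miRNAs on the array, with 2 of 656 probes and 40 of 11560 spots other than controls.

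The samples were Sca1+ and Sca1- cells sorted from CMT-U309, P114 and CMT-U27, which are 3 lines of canine mammary cancer, with 1 sample per line and fraction, so 3 samples per fraction and 2 per line. Sca1, stem cell antigen 1, is a surface protein used to sort stem-like cells. The labels name the Sca1+ cells cancer stem cells and the Sca1- cells the control. All cells were cultured in medium with serum, in humidified air with added CO2, and the labels name no treatment with low oxygen. The sample descriptions call both P114 samples cells grown with macrophages and the others mono-cultures, while titles and sources mention no macrophages, and this was not settled. Total RNA was measured on 6 Agilent arrays of 1 slide with 1 scan date, in 1 green channel, although the labels name the dye Cy5. Nothing says that the samples came from separate cultures, and the p-values thus cover only the spread of these samples, which may be technical.

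3 arrays were bright and 3 were dim. On the bright arrays 111 (B1), 91 (B2) and 89 miRNAs (B3) were detected, whose total gene signals summed to 69282, 70794 and 70162 intensity units. On the dim arrays there were 39 (D1), 22 (D2) and 9 (D3), with sums of 3228, 1277 and 319.5. The total gene signal is the scanner software's sum over the probes of a miRNA. Scanner files and the deposited value table assign these arrays to samples differently, and neither could be preferred. By scanner file, CMT-U309 was B1 for Sca1+ and B2 for Sca1- cells, P114 was D3 for Sca1+ and B3 for Sca1- cells, and CMT-U27 was D1 for Sca1+ and D2 for Sca1- cells. By value table, CMT-U309 was D2 for Sca1+ and D3 for Sca1- cells, P114 was B1 for Sca1+ and B3 for Sca1- cells, and CMT-U27 was D1 for Sca1+ and B2 for Sca1- cells. B1 was thus Sca1+, and B2 and B3 were Sca1-, in both readings, whereas B3 was the only bright array with a settled line, P114. By value table the Sca1+ arrays also shared 1 row of the slide and the Sca1- arrays the other, so that fraction and row cannot be told apart in that reading. B1 thus lay in another row than B2 and B3 in either reading, so on the bright arrays fraction and row cannot be told apart. By scanner file, CMT-U27 lay in 1 row and P114 in the other. The arrays are therefore named by letter.

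The probe sequences show which stretch of miR-210 was read, and how the pair of probes differ. They are given 5′ to 3′ as the scanner files hold them, with their RNA complements after them, and the capital marks the 1 base by which the 16-base probe is longer.
15-base probe: tcagccgctgtcaca
16-base probe: tcagccgctgtcacaC
RNA complement of the 15-base probe: ugugacagcggcuga
RNA complement of the 16-base probe: Gugugacagcggcuga
The complements cover the 3′ part of miR-210 and leave out its 5′ end, which holds the seed that pairs with target messages. The longer probe, A_38_P00015734, adds a G:C pair at the 3′ end of the probe, and its GC content was 62.5%, against 60.0% in the shorter probe, A_38_P00015733. The files place the shorter probe on canFam2 chromosome 18, 28664905 to 28664918, and the longer one at 28664904 to 28664918. Both pairs of positions are listed from high to low, and each spans 1 base less than its probe, as did all 582 probes with a single mapping. The longest run of bases that either probe shared with any of the other 654 probes was 8, with 3 probes for miR-122 and miR-542. miR-122, the liver miRNA, was detected on no array.

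In the RefSeq gene table of the assembly UU_Cfam_GSD_1.0, which is a later build and was used for names only, the gene MIR210 also lies on chromosome 18. It lies within the bounds of the long non-coding RNA gene LOC119864115. RASSF7, LMNTD2, LRRC56 and the oncogene HRAS precede it in the table, and PHRF1, the interferon regulator IRF7, CDHR5 and the hormone gene SCT follow it.

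miR-210 was detected on every bright array and on no dim array. Its total gene signal was 47.2 intensity units on B1, 29.4 on B2 and 81.1 on B3. The error that the scanner software gives for these totals was 6.23 on B1, 6.41 on B2 and 8.53 on B3; it covers the spots of 1 array and not the spread between samples. The Sca1+ array B1 thus lay between the Sca1- arrays B3 and B2. In no group of samples, by either reading, was miR-210 detected throughout except in a single line: CMT-U309 by scanner file, with 47.2 in Sca1+ and 29.4 in Sca1- cells, or P114 by value table, with 47.2 in Sca1+ and 81.1 in Sca1- cells.

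The spots of both probes showed the same division between bright and dim arrays. Without spots that the software flagged as outliers, the processed signal of the 16-base probe averaged 21.9 ± 2.43 on B1 (SD, n = 19 spots), 21.9 ± 2.30 on B2 (n = 18) and 38.3 ± 2.78 on B3 (n = 17). B1 and B2 overlapped over most of their spots, and B3 overlapped neither, since its lowest spot read 33.6 and the highest read 25.1 on B1 and 26.3 on B2. The 15-base probe averaged 12.9 ± 2.30 on B1, 8.58 ± 3.17 on B2 and 20.8 ± 2.27 on B3 (n = 18 spots each). Its order was B3, B1, B2, and the spots of B1 overlapped those of both other arrays. On the dim arrays every mean lay below 0, which is possible after background subtraction. The 16-base probe averaged -0.523 ± 1.74 on D1 (n = 17), -1.65 ± 1.62 on D2 (n = 19) and -2.12 ± 2.04 on D3 (n = 19). The 15-base probe averaged -2.32 ± 1.77 on D1 (n = 17), -3.86 ± 1.29 on D2 (n = 18) and -1.74 ± 2.47 on D3 (n = 18). Spots of 1 array share its RNA and are not replicates of a sample.

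**Figure D1:**
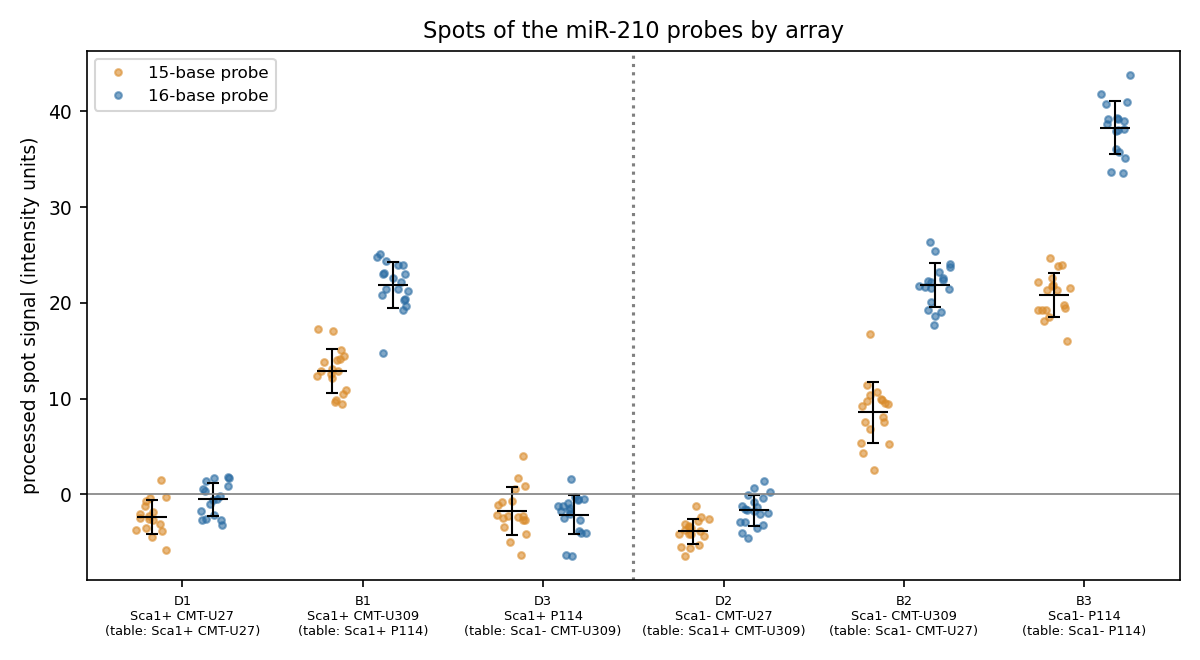
Processed signal in intensity units (vertical axis) of each unflagged spot of the 15-base and 16-base miR-210 probes on the 6 arrays, with Sca1+ arrays left of the dotted line and Sca1- arrays right of it by scanner file (the value table's assignment in brackets); bars give mean and SD over spots. The 16-base probe averages 38.3 on B3 against 21.9 on both B1 and B2, and both probes average below 0 on D1, D2 and D3.

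Calls of single spots followed the same order. Of the 20 spots of the 16-base probe, the software called 20 on B1, 14 on B2 and 20 on B3 well above background. For the 15-base probe it called 8 on B1, 1 on B2 and 20 on B3. On the dim arrays it called 1 spot of each probe on D1 and none on D2 and D3. These counts include spots flagged as outliers. Both spots called on D1 were flagged, and so was the 1 spot of the 15-base probe called on B2. No spot of either probe was saturated. Among the bright arrays, B2 had the fewest such spots for both probes.

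The total on B2 rested on 1 probe. The software leaves a probe out of a miRNA's total where the probe's signal is under 3 times its error, and this rule gave the deposited total of every detected miRNA on all 6 arrays, within 0.1%. On B2 the 15-base probe read 11.5 units, 1.98 times its error, and was left out. On B1 that probe read 17.5 and on B3 28.6, and both were counted. The 16-base probe read 29.6 on B1, 29.4 on B2 and 52.5 on B3. Adding both probes on every array gave 47.2 (error 6.23) on B1, 40.9 (error 8.66) on B2 and 81.1 (error 8.53) on B3. Such omissions were common, at 22.5% of the detected miRNAs on B1, 29.7% on B2 and 28.1% on B3.

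The size of the gap between B1 and B2 changed with that omission. The total was 1.60 times as high on B1 as on B2, a difference of 17.8 units with a combined error of 8.94. With both probes summed the ratio was 1.15, a difference of 6.22 with an error of 10.66, and by the 16-base probe alone it was 1.01. The Sca1+ array B1 was thus not distinguishable from the Sca1- array B2 beyond the measurement error once the same probes were counted. Against the Sca1- array B3, B1 was lower, with a ratio of 0.582 and a difference of -33.9 units (error 10.6), and no probe was left out on either array.

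miR-210 was higher on B3 than on B2 by every unscaled measure of its probes. The ratio was 2.76 by total gene signal (difference 51.7, error 10.67), 1.98 with both probes summed (difference 40.1, error 12.2), 1.79 by the 16-base probe and 2.47 by the 15-base probe. Both arrays held Sca1- cells, and the sums over all detected miRNAs were 70162 on B3 and 70794 on B2. B3 was P114. B2 was CMT-U309 by scanner file and CMT-U27 by value table. With 1 array of each, the difference has no replicate check and was not tested.

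Among the 78 miRNAs detected on all bright arrays, miR-210 had the highest ratio of B3 over B2 by total gene signal. The next were miR-370 at 2.43, miR-374a at 1.90, miR-494 at 1.86, miR-183 at 1.71 and miR-148b at 1.52, and the median of the 78 was 0.943. miR-210 was also the highest with all probes of each miRNA summed, at 1.98 against a median of 0.937, and by the brightest probe, at 1.75 against a median of 0.928. With the normexp background it came in place 3, at 1.22 against a median of 0.988, behind miR-494 and let-7e. That setting takes the mean spot signal rather than the detrended one, subtracts local background, models what remains and adds 50 units. The added 50 units exceed the mean processed signal of either miR-210 probe on any array. Most of the 78 (51) were highest on B1, 17 were highest on B2 and 10 (12.8%) on B3. By total gene signal, the ratio of B1 over B3 for miR-210 was 0.582, in place 8 from the lowest. With the normexp background it was 2.42, in place 42 from the lowest, against a median of 2.36.

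**Figure D2:**
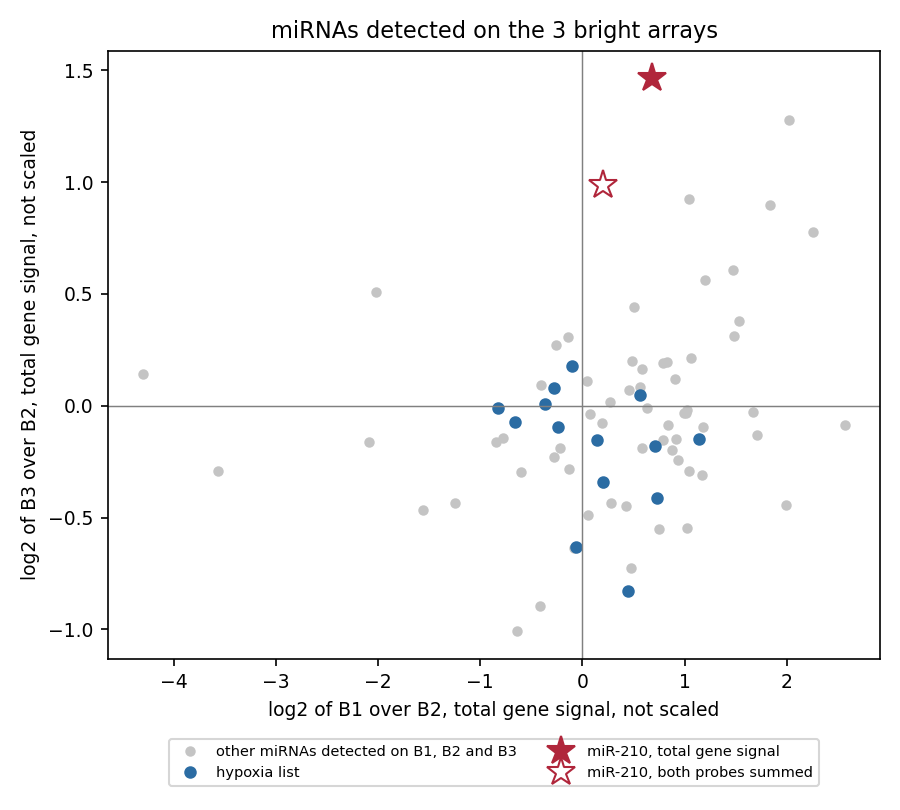
Each point is 1 of the 78 miRNAs detected on B1, B2 and B3, with the log2 ratio of total gene signal of B1 over B2 (horizontal) and of B3 over B2 (vertical), not scaled between arrays; the open star is miR-210 with both probes summed. miR-210 is the highest point on the vertical axis, at a ratio of 2.76, and moves to 1.98 with both probes summed.

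Within its array, miR-210 was a low to middling miRNA. It ranked 81 of 111 detected miRNAs on B1, 78 of 91 on B2 and 51 of 89 on B3, counted from the brightest. By the brightest probe of each miRNA it ranked 83, 76 and 57. Its share of all detected signal was 0.0681% for B1, 0.0415% for B2 and 0.116% for B3. The neighbours in rank were miR-128 (47.4) and miR-24 (46.5) on B1, miR-425 (30.5) and miR-141 (28.9) on B2, and miR-135b (89.6) and miR-149 (79.2) on B3. Probes differ in how strongly they bind, so a rank by signal is not a rank by abundance.

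The dim arrays could not have shown miR-210 at these shares. At the bright arrays' shares of the summed signal, it would have read 1.34 to 3.73 units on D1, 0.530 to 1.48 on D2 and 0.133 to 0.369 on D3. The lowest totals detected there were 10.4 on D1, 7.51 on D2 and 12.6 on D3. Whether miR-210 differed between a dim and a bright array was therefore not detectable at this signal. No fold against a dim array could be bounded, since every lower bound computed on the scaled values was under 1, between 0.0495 and 0.268. The fitted differences over 6 arrays given further on therefore rest on floor values and are not measured folds.

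**Figure D3:**
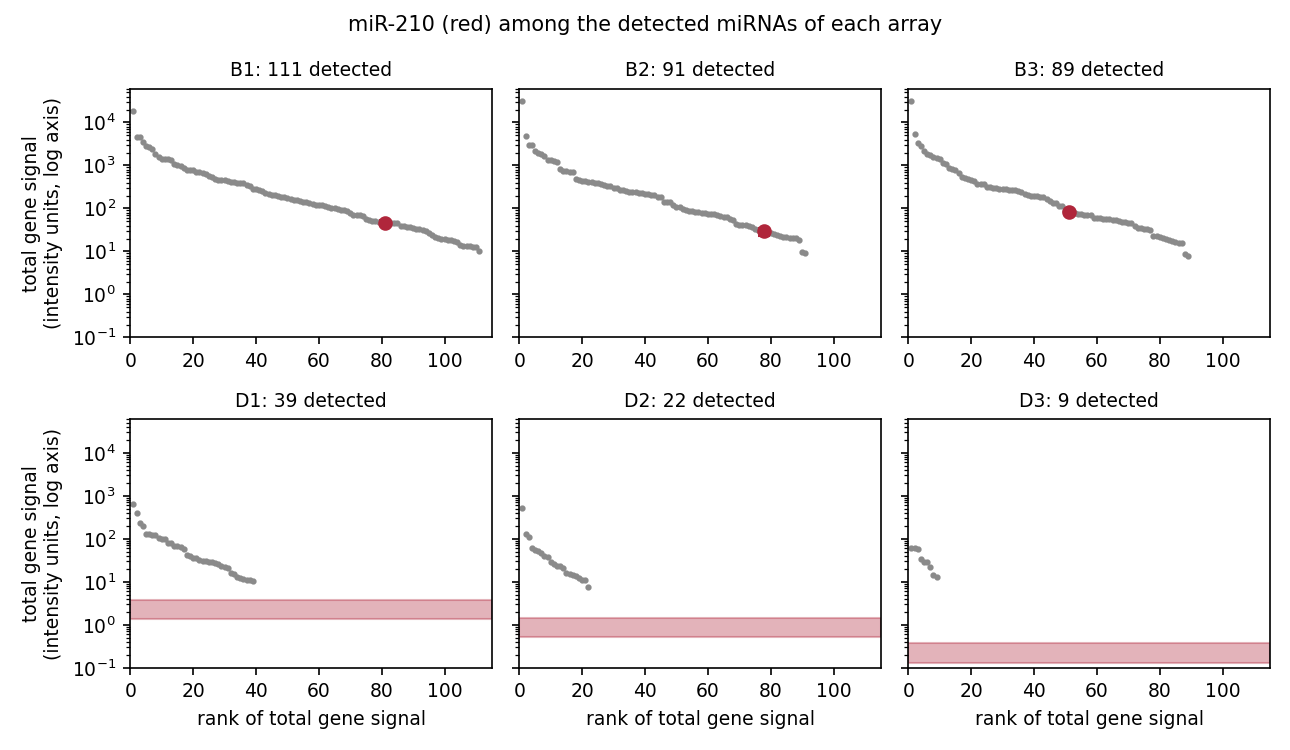
Total gene signal in intensity units (log axis) of the detected miRNAs of each array against their rank, with miR-210 in red on B1, B2 and B3; the red band on D1, D2 and D3 spans the signal miR-210 would have at the bright arrays' shares. The band ends at 3.73 on D1, below the lowest detected total of 10.4, and lies lower still on D2 and D3.

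The comparison of Sca1+ with Sca1- cells that rests on measured values is that of B1 with B2 and B3. B1 lay in another row of the slide than B2 and B3, so fraction and row cannot be told apart here in either reading. After scaling over these arrays, the 16-base probe had a log2 level of 4.23 on B1, against 4.36 on B2 and 5.55 on B3. The lowest probe well above background stood at 3.46 on B1, 4.32 on B2 and 4.27 on B3, so the B2 value lay at the detection limit. miR-210 had a log2 difference of -0.73 (SE 0.63, 95% interval -2.61 to 1.16) with a Benjamini-Hochberg adjusted p of 0.458 by limma, with 1 Sca1+ array against 2 Sca1- arrays. It was not called. Of the 90 miRNAs tested, 4 were called, or 4.44%, and the median difference of all 90 was 0.18. The p rests on the spread between B2 and B3, which come from different lines, and on the spread pooled over all 90 miRNAs. It assumes that the lone B1 varies alike. It had 3.32 degrees of freedom in total, with 1 residual. The normexp fit given below had 90, so its spread was pooled over the 90 miRNAs. The fit of B1 against B2 and B3 has no term for line, so the pair from 1 line (B1 with B2 by scanner file, B1 with B3 by value table) was not compared as a pair. Detection on 2 bright arrays was needed, so a miRNA seen only on B1 could not be tested, and all calls were lower in Sca1+.

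The direction for miR-210 turned with the background correction. With normexp it was 0.67 (adjusted p = 0.0253 by limma), with 54 of the 90 miRNAs called, or 60%, and a median of 0.55 over all of them, so that miR-210 stood 0.13 above that median. In 7 settings of background, scaling and probe summary, miR-210 had distinct values. The detection-limit floor left miR-210 on these arrays as it was, though not all other miRNAs. Over the 7, the B1 minus B2 difference ran from -0.42 to 0.96 and was below 0 in 4. The B1 minus B3 difference ran from -1.97 to 0.39. B3 had the highest level in 6 of the 7, all but normexp, and the B3 minus B2 difference ran from 0.57 to 1.56.

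**Figure D4:**
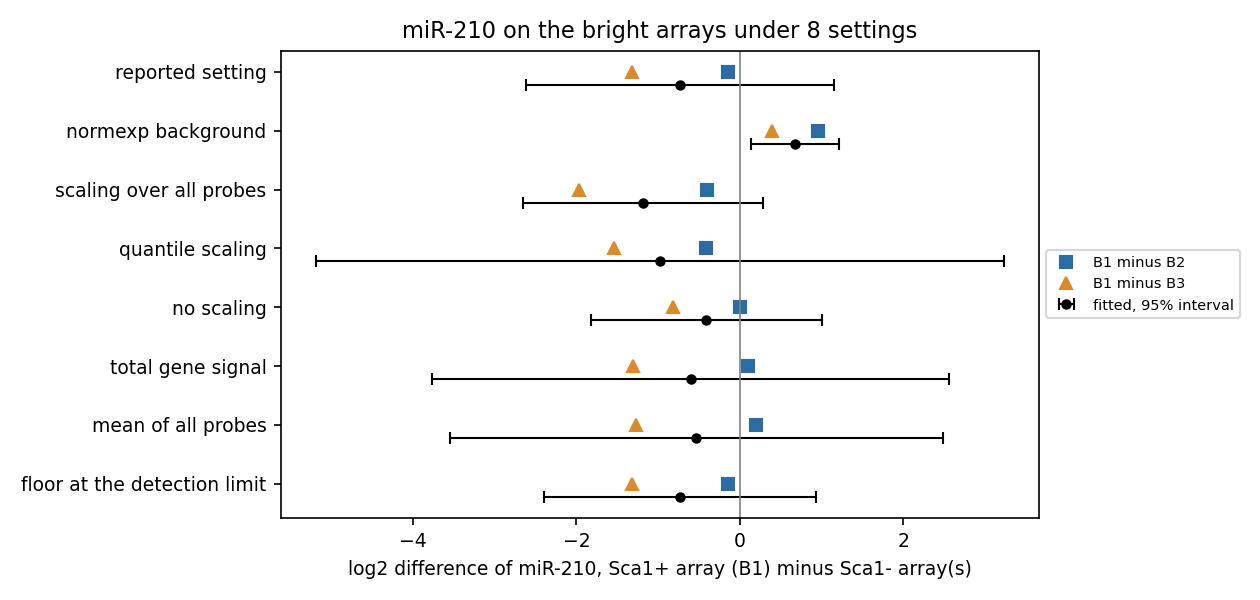
Log2 difference of miR-210 (horizontal) between the Sca1+ array B1 and the Sca1- arrays B2 (squares) and B3 (triangles), with the fitted difference and its 95% interval (black), under 8 settings (vertical). The detection-limit floor gives the same miR-210 values per array as the reported setting. The fitted value is -0.73 in the reported setting and 0.67 with normexp, which alone puts B1 above B3.

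The same question over all 6 arrays, within lines, gave no call for miR-210. By scanner file, the Sca1+ samples had a total of 47.2 in CMT-U309 and were undetected in P114 and CMT-U27, and the Sca1- samples had 29.4 in CMT-U309, 81.1 in P114 and none detected in CMT-U27. The fitted log2 difference was -3.03 (SE 2.50, 95% interval -9.22 to 3.15, adjusted p = 0.995 by limma), and 0 of 80 miRNAs, 0%, were called, with 0 at an unadjusted p under 0.05 too. By value table it was -3.30 (adjusted p = 0.792 by limma), with 0 of 80 called and 3 at an unadjusted p under 0.05. On D1, D2 and D3 the fit uses floor values of an undetected miRNA, so the sizes are inexact.

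Between lines, the direction for miR-210 depended on which arrays were taken for which line. By scanner file, the fitted log2 difference of CMT-U309 over CMT-U27 was 8.29 (SE 3.06, adjusted p = 0.379 by limma); no miRNA of 80 was called, 0%, and 9 had an unadjusted p under 0.05. That comparison set the bright B1 and B2 against the dim D1 and D2, where both probes averaged below 0, so the floor sets the value. With the floor at each array's detection limit it was -3.23 (adjusted p = 0.824 by limma). Without either P114 array, adjusted p = 0.0477 by limma and 5 of the 80 were called, or 6.25%. P114 over CMT-U27 was 4.61 (adjusted p = 0.994) and P114 over CMT-U309 -3.68 (adjusted p = 0.791), with 0 of 80 called by limma in each and 0 at an unadjusted p under 0.05.

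By value table, P114 over CMT-U309 was 8.88 for miR-210 (SE 2.21, adjusted p = 0.0459 by limma), 1 of 24 calls among the 80 miRNAs, or 30%. In this reading both P114 arrays, B1 and B3, were bright, with sums of 69282 and 70162, and both CMT-U309 arrays, D2 and D3, dim, with 1277 and 319.5. With the floor raised to each array's detection limit, the same comparison gave -4.34 (adjusted p = 0.00333 by limma, 68.8% of miRNAs called), and with normexp -2.74 (adjusted p = 4.76e-06 by limma, 85% called). The normexp p rests on a spread pooled over the 80 miRNAs (160 degrees of freedom). By these treatments the call stood on opposite sides of 0, with no measured miR-210 on D2 or D3. CMT-U309 over CMT-U27 turned in the same way, at -4.83 (adjusted p = 0.197, 17.5% called) with the reported floor and 3.36 (adjusted p = 0.0135, 70% called) with the detection-limit floor. P114 over CMT-U27 was 4.06 (adjusted p = 0.984 by limma), with 0 of 80 called and 0 at an unadjusted p under 0.05.

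**Figure D5:**
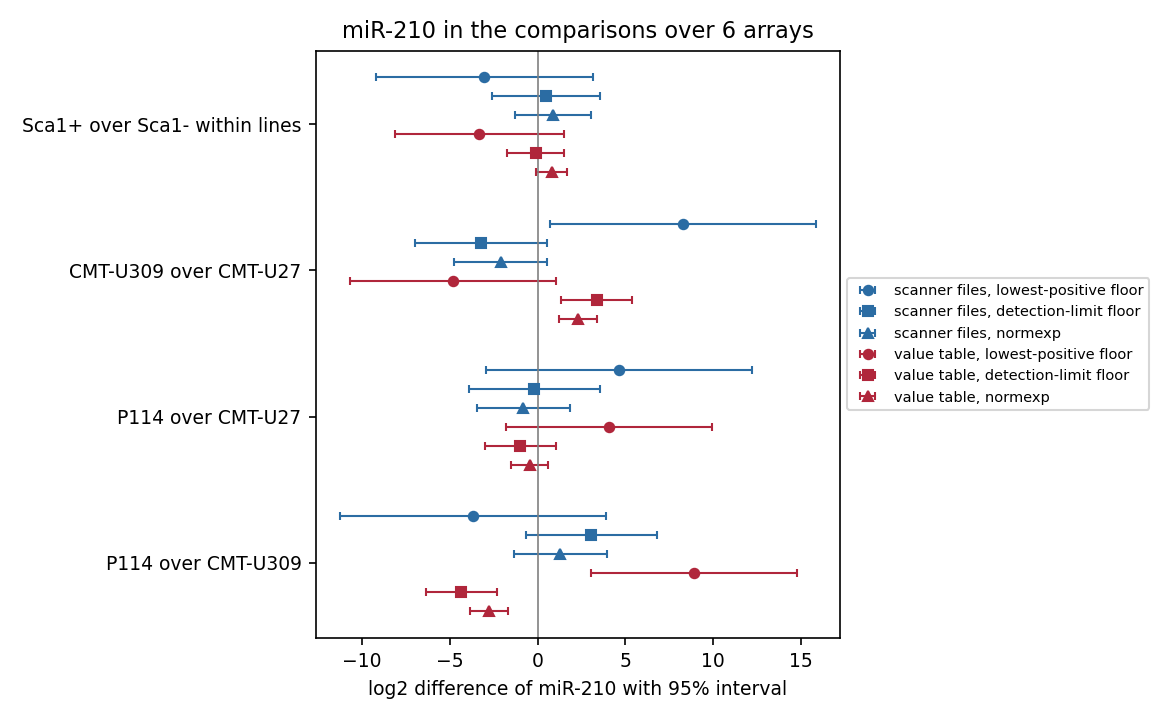
Fitted log2 difference of miR-210 with its 95% interval (horizontal) for 4 comparisons over 6 arrays (vertical), by scanner file (blue) and value table (red), each with 3 treatments of low signal. For P114 over CMT-U309 by value table, the values are 8.88, -4.34 and -2.74, so intervals that exclude 0 lie on both sides of it.

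The miRNAs whose levels were most like miR-210 over B1, B2 and B3 were sought among the other 77 detected on all of them, by the root mean square (RMS) difference of log2 total gene signals, each centred on its own mean. The nearest were miR-374a (RMS 0.369), miR-874 (0.448), miR-365 (0.487), miR-22 (0.513) and miR-23a (0.529), against a median of 0.764 over the 77. miR-374a had totals of 20.3 on B1, 9.87 on B2 and 18.7 on B3. The totals of miR-22 were 582.7, 695.6 and 838.6, and miR-23a had 4516, 4837 and 5470, so both were brightest on B3 and dimmest on B1. The list kept 4 of its 5 names when the brightest probe or all probes were used, the exception being miR-374a. With 3 arrays the likeness is a description.

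Other miRNAs known to go with hypoxia were read beside miR-210. Of the 22 on that list, 21 were on the array and 17 were detected on at least 1 array, miR-210 included. B1 detected 17, B2 detected 16 and B3 detected 15 of them, against 10 for D1, 7 for D2 and 2 for D3. Of the 14 besides miR-210 detected on all bright arrays, 3 were highest on B3 (miR-23a, miR-23b and miR-24), against 10 of all 78. miR-21, abundant in many tumours, had 18172 on B1, against 32139 on B2 and 31945 on B3. miR-155, a miRNA of activated leukocytes that also rises in many tumours, had 189.2 on B1, 138.6 on B2 and 78.0 on B3, and so ran opposite to miR-210 between B3 and B2. The miRNA miR-107, which lies in a pantothenate kinase gene, had 447.9 on B1, 202.8 on B2 and 182.8 on B3. In the fit of B1 against B2 and B3, 15 of these miRNAs were tested besides miR-210. Of their differences, 7 were above 0 and 8 below, with a median of -0.12 against 0.18 over all 90.

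Of 9 miRNAs known to repress the messages of HIF subunits, 8 were on the array and 6 were tested in the same fit. Among them, miR-199 was undetected on B1 and had totals of 244.9 on B2 and 193.0 on B3. It entered the fit only through the Sca1- arrays B2 and B3, since detection on 2 bright arrays was needed. A miRNA seen on B1 alone, such as miR-200c (1427), could not enter, so the filter favours lower values in Sca1+. The fit of miR-199 sets a floor value on B1, a lone array, against B2 and B3. It is thus no support for a difference, and its size is not given. The median over the 6 was -0.07, against 0.18 over all 90. miR-22, named above for its likeness to miR-210, is also on this list, with a difference of -0.71 (adjusted p = 0.350 by limma). miR-20a, of the miR-17 family, had 775.1 on B1, against 820.0 on B2 and 527.6 on B3.

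miR-210 is also abundant in maturing red cells, so markers of other cells were read beside it. The erythroid miR-451 was detected on B2 (18.1) and D2 (39.4) and not on B1 and B3, and miR-144 was detected nowhere. Of 5 leukocyte miRNAs, miR-223 was nearly level over all arrays, between 59.6 and 80.9, with 70.9 on B3 and 80.9 on B2. The signal summed over detected miRNAs fell from 70794 on B2 to 319.5 on D3, where miR-223 still read 61.2. Its reading thus did not follow the signal of the array and is not taken as a level of leukocytes. miR-451 too read higher on D2, whose sum was 1277, than on B2. miR-142 and miR-150, also on the leukocyte list, were undetected on every array. miR-146a read 689.7 on B1 alone. The endothelial miR-126, 4 muscle miRNAs and the liver's miR-122 were detected on no array. Of 7 epithelial miRNAs, 5 were detected on B1, 1 on B2 and none on B3, with summed totals of 5129, 28.9 and 0. The 1 on B2, miR-141, also read 23.9 on D2, whose sum was 1277. Whether cell makeup has a part in the levels of miR-210 was not tested.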

How the data were processed

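The deposited scanner files hold the intensity of each spot. Agilent Feature Extraction made them, at version 10.10.1.1 per the file headers, while the submitters' processing notes name 10.7.3.1. Per the file headers, that software subtracted the background and detrended the processed intensity over the array surface, with no scaling between arrays. The total gene signal is 0.1 where a miRNA is undetected. Each column of the deposited table of intensity equalled the total gene signals of exactly 1 scanner file for all 289 miRNAs (tolerance 1e-04), for 4 samples that of another sample.

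Unflagged spots at or below 0 were set to the array's lowest positive value, and log2 was taken. Arrays were scaled by the 75th percentile over probes well above background on all arrays used (10 probes over 6 arrays, 122 over the bright arrays, which are those with over 50 detected miRNAs). A miRNA took its brightest probe, for miR-210 the 16-base one. Those detected on at least 3 arrays (or 2 bright arrays) were tested with limma 3.58.1 in R 4.3.3 (files read with data.table, version 1.17.8), over 6 arrays with terms for line and fraction, so that the 2 fractions of a line, sorted from the same cells, were compared as a pair. The bright fit had a term for fraction only and 1 residual degree of freedom. limma draws the spread of each miRNA toward one shared by all those tested, so each p rests on both. The Benjamini-Hochberg adjustment was used, and calls needed an adjusted p under 0.05. The small number of arrays limits the precision. The test of fraction within lines was tried on simulated data in which every array had the same spread and none was dim. That trial does not show how the test does with floor values. Alternatives changed background, scaling, floor, filter, probe summary, array assignment and samples; keeping flagged spots and joint changes of assignment with floor or background were added after seeing the data.

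The named miRNAs are miR-210, its rank neighbours, the 5 of nearest pattern, the detected members of 2 lists drawn up from background knowledge, and markers of other cells. miR-210, these lists and the bright-array fit were chosen with earlier results of these data known.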

Additional observations from a re-analysis of the deposited data

How the results depend on the processing

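miR-210 itself passed the threshold under 4 of 18 alternatives for CMT-U309 over CMT-U27, 3 of 18 for P114 over CMT-U309, 1 of 9 on the bright arrays, and none of 18 for P114 over CMT-U27 or of 19 for Sca1+ over Sca1- within lines, where adjusted p ran from 0.218 to 1.00. For CMT-U309 over CMT-U27, the passes without D3 and without B3 were the same fit, since the P114 array that is left has its own term. The other passes there, and all those for P114 over CMT-U309, used the value table, which sets other arrays against each other. With normexp by scanner file, the log2 differences turned to 0.86 within lines, -2.10 for CMT-U309 over CMT-U27, -0.81 for P114 over CMT-U27, 1.29 for P114 over CMT-U309 and 0.67 on the bright arrays. With the floor at the detection limit they turned to 0.48, -3.23, -0.18 and 3.05 over 6 arrays. By value table, CMT-U309 over CMT-U27 turned to -4.83 (14 miRNAs passing) and P114 over CMT-U309 to 8.88 (24 passing). By value table with the detection-limit floor, CMT-U309 over CMT-U27 was 3.36 (56 passing), P114 over CMT-U27 -0.97 and P114 over CMT-U309 -4.34 (55 passing). By value table with normexp these were 2.28 (64 passing), -0.46 and -2.74 (68 passing), and the difference within lines was 0.80 (3 passing). On the bright arrays, against 4 reported, the number passing was 54 with normexp, 11 with scaling over all probes, 10 with the detection-limit floor, 2 with the mean of all probes, and 0 with quantile scaling and with no filter. With total gene signal, 1 miRNA passed for CMT-U309 over CMT-U27 and 1 for P114 over CMT-U27. The cause of these changes was not tested.

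Leaving out 1 of the 6 arrays gave -5.03 to 0.13 within lines, 5.30 to 11.28 for CMT-U309 over CMT-U27 (0 to 5 passing), -0.13 to 9.35 for P114 over CMT-U27 and -8.42 to 1.06 for P114 over CMT-U309. The difference within lines was 0.13 without D3 or without B3, P114 over CMT-U309 was 1.06 without D3, and P114 over CMT-U27 was -0.13 without B3. CMT-U309 over CMT-U27 passed without either of these arrays. Without the replicate block of line, the difference within lines was -3.03 (adjusted p = 0.994 by limma), and no call changed. Leaving out a bright array from the bright fit left no residual degrees of freedom, so no test was run. The rank by brightest probe was 83 on B1, 76 on B2 and 57 on B3. Signal over background limits D1, D2 and D3: no treatment of the low values measures miR-210 there.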

Other observations

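Single spots far above their probe's other spots were present and had been flagged as outliers by the scanner software. On D1, 1 spot of the 16-base miR-210 probe read 311.7 units, where the other unflagged spots averaged -0.523, and with it the mean over all 20 spots was 15.8. On B3, 1 spot of the 15-base probe read 102.5, where the unflagged spots averaged 20.8, and the mean over all 20 was 25.3. Keeping flagged spots gave a log2 difference for miR-210 of -0.79 on the bright arrays, against -0.73 without them. The 16-base probe read 1.69 times the 15-base probe on B1, 2.55 times on B2 and 1.84 times on B3.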
